A study of Mus musculus with 4 samples.

Results

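Elastic fibres and the glycoproteins around them give vessel walls and connective tissue their recoil and hold collagen in order. Elastin is laid down on a scaffold of fibrillin microfibrils, fibulins join the parts, and small leucine-rich proteoglycans such as biglycan and decorin bind collagen and growth factors. In vessels these proteins come from smooth muscle cells, fibroblasts and, for some of them, the endothelium itself. The dura mater is a collagen-rich membrane. The 10 genes described here, Eln, Fbn1, Fbln5, Fbln2, Bgn, Dcn, Lum, Mgp, Aebp1 and Sparcl1, encode non-collagen proteins of the interstitial matrix. They were chosen by gene symbol, at a point when the dura mater and brain endothelial cells (ECs) of these same libraries had already been compared. Their difference between the tissues is therefore given as a description, with no p-value printed for any of them, and counts of those that passed a test threshold are given beside the same count over all genes. All 10 were found among the 23282 entries of the count tables, each on 1 line.

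Mice of strain C57BL/6J, aged 8 weeks, gave 2 libraries of brain parenchyma ECs and 2 of dura mater ECs, and the mice carried no treatment or allele that the labels name. The cells were sorted by FACS as positive for CD31 and negative for CD45 and TER-119, and brain ECs alone were first enriched on magnetic beads. The number of mice behind each library, and whether libraries of the same number shared mice, is not stated. RNA was counted with a kit that reads the 3′ ends of transcripts, so counts were scaled to CPM, counts per 1000000 counts of the library, and not divided by transcript length. Totals lay between 13518973 and 16096203 counts, at which 3 counts equal 0.181 to 0.226 CPM. Replicates of one tissue often disagreed on whether a gene was counted at all. Of the 8212 symbols that reached 64 counts in either brain library, 2572 (31.3%) had 7 or fewer in the other, and the share in the dura mater was 30.7%. The sorted cells carried endothelial markers in all 4 libraries, with 10 of 10 markers at 64 or more counts in each, and a summed level of 11392 ± 1754 CPM in brain and 9109 ± 1592 CPM in dura mater (SD, n = 2). By mean level over the 4 libraries they were led by Esam, Egfl7 and Pecam1. Among them 1 was called, the tight junction gene Cldn5, at 1241 and 1311 CPM in brain and 211 and 231 CPM in dura mater (edgeR adjusted p 0.0388, log2 fold change −2.52, SE 0.33).

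Taken as a group, the 10 genes held several times more of the RNA counts of dura mater ECs than of brain ECs. They made up 0.388% of counts in brain replicate 1 (95% Wilson interval 0.384 to 0.391) and 0.386% in brain replicate 2 (0.383 to 0.389). In the dura mater they made up 1.37% (1.36 to 1.38) and 1.42% (1.41 to 1.42), and these intervals cover counting error only. Their summed level was 3929 ± 114 CPM in brain and 13713 ± 46.7 CPM in dura mater (SD, n = 2), a ratio of 3.49. Much of that difference was Mgp. In bulk RNA of sorted cells, fewer cells that make a transcript and less of the transcript per cell cannot be told apart.

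**Figure D1:**
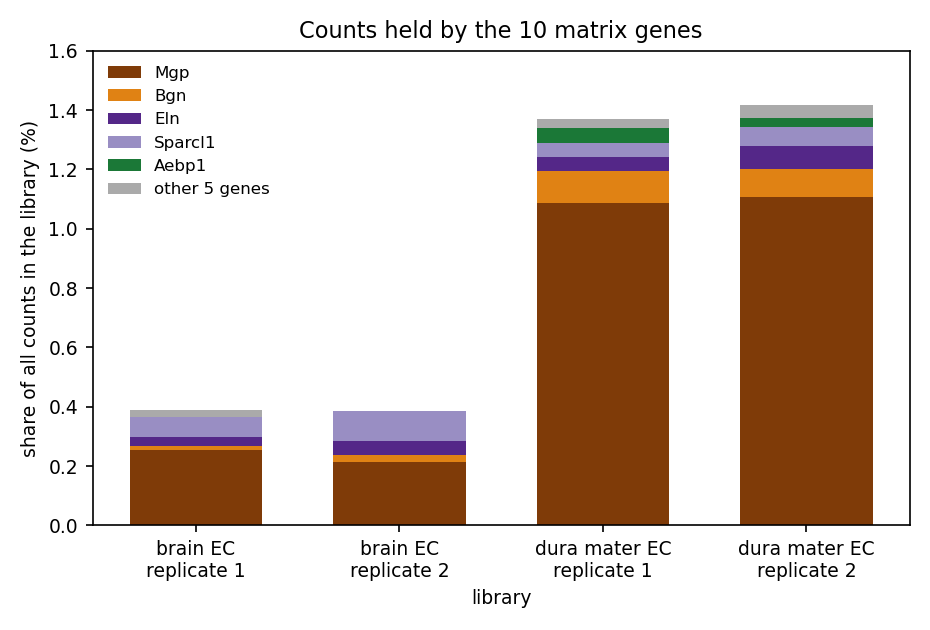
Share of all counts in each library (percent, vertical axis) held by the 10 matrix genes, with 5 genes stacked by name and the other 5 as 1 block, and 1 bar for each of the 4 libraries. Mgp fills most of each bar, and the bars stand near 0.39% in both brain libraries and at 1.37% and 1.42% in the dura mater libraries.

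By their counts the genes fell into 4 patterns. Mgp, Bgn, Eln and Sparcl1 had 64 or more counts in all 4 libraries, as 4266 of all symbols (18.3%) did. Aebp1, Fbn1 and Dcn had at most 20 counts in each brain library and 64 or more in each dura mater library, a pattern shared by 824 symbols (3.54%). The limit of 20 is wider than the 7 used for the other patterns and takes in Dcn. At 7 the pattern held Aebp1, Fbn1 and 761 symbols (3.27%) in all. Fbln5 and Fbln2 were well counted in both dura mater libraries and in brain replicate 1 but had 1 count in brain replicate 2, as did 532 symbols (2.29%) with 7 or fewer counts there. Lum had 7 or fewer in all 4 libraries, as 11368 symbols (48.8%) did.

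**Figure D2:**
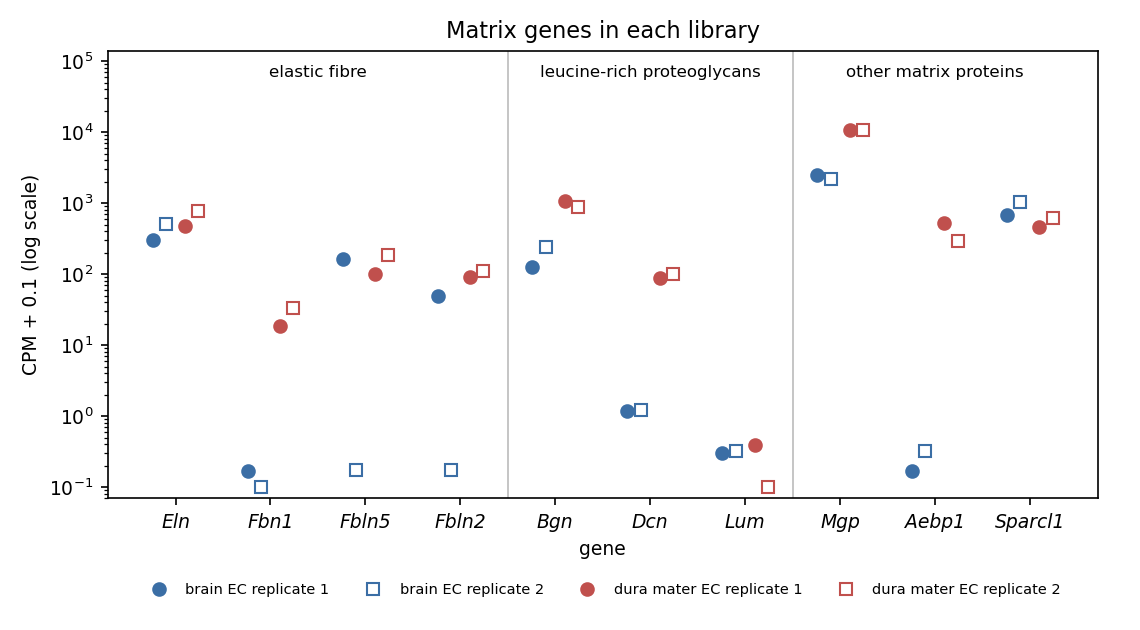
Level of each gene in each library, as CPM plus 0.1 on a log scale, with brain ECs in blue and dura mater ECs in red (filled circles for replicate 1, open squares for replicate 2). The replicates of Mgp and Dcn lie close together, whereas Fbln5 and Fbln2 are near the bottom of the axis in brain replicate 2 alone.

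Of the 10 genes, 9 passed the filter on low counts and Lum did not. Aebp1 and Fbn1 were under its limit of 0.707 CPM in both brain libraries and passed through the dura mater libraries alone, so that they had to be higher there, as did 962 (10.3%) of all genes tested. In the edgeR quasi-likelihood fit over all genes, 2 of the 9, Aebp1 and Mgp, had an adjusted p under 0.05 and both were higher in dura mater. Over all 9347 genes tested, 40 (0.428%) were called as higher in dura mater and 57 (0.610%) in either direction. Both dura mater libraries stood above both brain libraries for 6 of the 10 genes (Mgp, Bgn, Dcn, Fbn1, Aebp1 and Fbln2), a pattern that 25.9% of the genes tested showed. Sparcl1 was the reverse, with both dura mater libraries below both brain libraries, as for 17.1% of the genes tested. The median log2 fold change over the 9 genes was 2.20, beside −0.01 over all genes tested. Nothing is read from these counts, since the comparison was known when the genes were chosen. The count of called genes was 6 without brain replicate 1 and 4 without brain replicate 2, and calls over all genes went the same way, to 740 of 11591 (6.38%) and 701 of 11596 (6.05%). The median over the 9 genes was 6.18 without brain replicate 1. In those fits the median over all genes was itself 1.03 without brain replicate 1 and 0.95 without brain replicate 2, so single values from them are read against that shift.

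Elastin, encoded by Eln (chromosome 5, 134702593 to 134747323, minus strand, GRCm38), is the elastic core of the fibre. It was counted at 307 and 509 CPM in brain replicates 1 and 2, and at 475 and 773 CPM in dura mater replicates 1 and 2. The groups overlapped, since dura mater replicate 1 was below brain replicate 2. Its log2 fold change, dura mater over brain, was 0.63 (SE 0.45), from means of 408 ± 143 and 624 ± 211 CPM (SD, n = 2). In both tissues replicate 2 was the higher library, by 0.73 on the log2 scale in brain and 0.70 in dura mater. On the opposite strand a gene model covers 3.3% of Eln's exons, and since the use of strand in the counting is not stated its reads cannot be told apart from those of Eln.

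Fibrillin-1, encoded by Fbn1 (chromosome 2, 125300594 to 125507993, minus strand), forms the microfibrils on which elastin is deposited. The brain libraries held 1 and 0 counts of it and the dura mater libraries 251 and 544, or 18.6 and 32.8 CPM. Brain ECs were thus at the limit of counting and dura mater ECs at a low level well above it. The ratio of pooled counts scaled to library size was 735, with a counting interval from 132 to 29073 that reflects the single brain count. Exons of an antisense gene cover 20.1% of Fbn1's exons, so its counts are uncertain in the same way.

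The fibulins, unlike elastin, were well counted in brain replicate 1 and had 1 count in brain replicate 2. Fibulin-5, encoded by Fbln5 (chromosome 12, 101746565 to 101819055, minus strand), tethers elastin to cell-surface integrins and to microfibrils. Its level was 163 CPM in brain replicate 1, 0.0752 CPM (1 count) in brain replicate 2, and 99.3 and 187 CPM in the dura mater. The better counted brain library thus lay between both dura mater libraries. Its log2 fold change of 0.82 (SE 2.08) was −0.25 without brain replicate 2 and 9.37 without brain replicate 1, so 1 library set its size and its sign.

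Fibulin-2, encoded by Fbln2 (chromosome 6, 91212455 to 91272540, plus strand), binds fibrillin and basement membrane proteins. It was at 48.9 CPM in brain replicate 1 and 0.0752 CPM (1 count) in brain replicate 2, against 90.8 and 112 CPM in the dura mater. Here both dura mater libraries were above either brain library. Its log2 fold change was 2.06 (SE 2.12), which was 0.996 without brain replicate 2 and 8.87 without brain replicate 1. The dura mater replicates of Fbln2 differed by 0.30 on the log2 scale, less than the median of 0.62 over symbols well counted in all 4 libraries.

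Among the small leucine-rich proteoglycans, Bgn was counted in both tissues, Dcn was largely a dura mater transcript, and Lum was at the limit of counting in both. Biglycan, encoded by Bgn (chromosome X, 73483602 to 73495933, plus strand), carries glycosaminoglycan chains and binds collagen and TGF-beta. Its level was 126 and 245 CPM in brain and 1061 and 889 CPM in dura mater. The lower dura mater library stood well above the higher brain library. Means were 185 ± 84.2 and 975 ± 122 CPM (SD, n = 2), and the log2 fold change was 2.41 (SE 0.45), from 1.96 without brain replicate 1 to 2.91 without brain replicate 2.

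Decorin, encoded by Dcn (chromosome 10, 97479609 to 97518143, plus strand), is the closest relative of biglycan and decorates collagen fibrils. Brain ECs gave 16 and 15 counts (1.10 and 1.13 CPM) and dura mater ECs 1184 and 1664 (87.5 and 100.2 CPM). Both pairs of replicates agreed closely, within 0.04 on the log2 scale in brain and 0.20 in dura mater. The ratio of the means was 84.3 and the log2 fold change 6.24 (SE 1.62). Lumican, encoded by Lum (chromosome 10, 97565128 to 97572703, plus strand), regulates collagen fibril width and is a common fibroblast transcript. It lies on the same strand 46984 bases beyond Dcn, yet gave 3 and 3 counts in brain and 4 and 0 in dura mater. No difference of Lum was detectable at this depth, and no fold change is given.

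The remaining genes held the highest and the most divergent levels. Matrix Gla protein, encoded by Mgp (chromosome 6, 136872435 to 136875823, minus strand), is a vitamin K-dependent inhibitor of calcification that also binds bone morphogenetic proteins. Its level was 2519 and 2209 CPM in brain and 10865 and 10749 CPM in dura mater. It was among the most counted genes of both tissues, at rank 31 and 45 in the brain libraries and rank 1 in each dura mater library. The log2 fold change was 2.20 (SE 0.24), and the ratio of the means was 4.57. Of the counts held by all 10 genes, Mgp took 65.5% (Wilson interval 65.1 to 65.8) and 55.1% (54.7 to 55.5) in the brain libraries. It took 79.4% (79.2 to 79.6) and 78.2% (78.0 to 78.4) in the dura mater libraries.

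Aebp1 (chromosome 11, 5861947 to 5872088, plus strand) encodes aortic carboxypeptidase-like protein, a secreted protein that binds collagen. Brain ECs gave 1 and 3 counts of it, and dura mater ECs 7013 and 4830. This was the widest gap among the 10 genes, from at most 0.226 CPM to 518 and 291 CPM. The ratio of pooled counts was 2738, with a counting interval from 1069 to 10050, and the log2 fold change was 10.49 (SE 0.88). In the 16 of 17 alternative settings that kept the gene it stayed between 9.91 and 11.39.

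Sparcl1 (chromosome 5, 104079111 to 104113733, minus strand) encodes hevin, a secreted relative of SPARC made by endothelium and astrocytes. It was counted at 683 and 1045 CPM in the brain libraries and at 463 and 611 CPM in the dura mater libraries. Of the 9 genes fitted it alone had a negative log2 fold change, −0.67 (SE 0.38), and the groups did not overlap. The gap was small, since the lower brain library exceeded the higher dura mater library by less than the distance between the brain replicates. The share of Sparcl1 in the counts of the 10 genes was 17.8% (17.4 to 18.1) and 26.1% (25.7 to 26.4) in brain. In dura mater it was 3.39% (3.31 to 3.47) and 4.44% (4.36 to 4.53).

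Promoter windows from RefSeq (GRCm38.p6) are shown for Aebp1 and Bgn, the gene with the widest gap and a proteoglycan gene counted in both tissues, to set the sequence before both start sites side by side. Each window is the 250 bases before the start site, read 5′ to 3′ on the strand of the gene, at chr11:5861616-5861865 for Aebp1 and chrX:73483351-73483600 for Bgn, neither overlapping a GENCODE M21 exon. Capitals mark the GC box GGGCGG or its reverse complement.
Aebp1: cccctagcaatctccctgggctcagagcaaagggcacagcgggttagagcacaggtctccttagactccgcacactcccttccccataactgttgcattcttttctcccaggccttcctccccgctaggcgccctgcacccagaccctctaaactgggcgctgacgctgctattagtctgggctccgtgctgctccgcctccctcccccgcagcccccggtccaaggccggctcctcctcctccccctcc
Bgn: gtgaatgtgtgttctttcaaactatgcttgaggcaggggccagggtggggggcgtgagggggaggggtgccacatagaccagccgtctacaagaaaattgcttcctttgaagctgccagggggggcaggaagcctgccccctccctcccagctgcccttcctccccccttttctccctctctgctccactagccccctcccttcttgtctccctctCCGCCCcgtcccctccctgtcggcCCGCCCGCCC

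The Bgn window held the GC box 3 times, a pair of them overlapping, and the Aebp1 window held it 0 times. Of 32851 windows of this length, 32.7% held it on either strand. The TATA box TATAAA was in neither window and in 12.4% of all windows. Both windows had a GC content of 64.4%. A match of letters is not a binding site, and no level is read from it.

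The wider matrix was read from 65 further genes in 3 lists that hold none of the 10: elastic fibre partners, other small leucine-rich proteoglycans, and other matrix glycoproteins. Of these, 25 passed the filter on low counts, 16 had 7 or fewer counts in every library, and 0 had an adjusted p under 0.05 in edgeR. At an unadjusted p under 0.05 there were 10 of the 25 tested, 8 higher and 2 lower in dura mater, against 10% of all genes tested. DESeq2 called 8 of the 25, 6 higher and 2 lower, with 8.67% of all genes called. The limma-voom test called 1 of the 25, Mmrn2, with 0.856% of all genes called. Without brain replicate 1 edgeR called 6 of 47 tested, and without brain replicate 2 it called 6 of 48, in the fits that called 6.38% and 6.05% of all genes. The median log2 fold change over the 25 was 1.59, and 19 were above 0, beside 49.8% of all genes tested. Of the 25, 7 (Mfap2, Emilin1, Ltbp1, Chad, Smoc1, Comp and Mmrn1) were under the filter's limit in both brain libraries and so could only be higher in dura mater. This is 28% of the partner genes tested, beside 10.3% of all genes tested. Among these, Mfap2, Chad and Mmrn1 were called higher by DESeq2 and were higher at an unadjusted p under 0.05. Nothing is read from that median or from these counts of genes higher in dura mater.

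Of the elastic fibre partners, 9 of 19 were tested and 7 had a log2 fold change above 0 (median 1.70). Mfap2, which encodes a microfibril-associated glycoprotein that binds fibrillin, was not counted in brain and stood at 41.0 and 77.3 CPM in dura mater. Set against 3 counts per brain library, the mean of the dura mater libraries was 274-fold higher. The adjusted p was 0.310 in edgeR, 4.98e-05 in DESeq2 and 0.0825 in limma-voom. Ltbp4, a latent TGF-beta binding protein that also aids elastic fibre assembly, was the most counted partner in this list. Its level was 1745 and 1050 CPM in brain and 829 and 1230 CPM in dura mater, and the groups overlapped (log2 fold change −0.43, SE 0.39, edgeR adjusted p 0.946). Emilin1, which is found between elastin and microfibrils, was at 0.412 and 0.150 CPM in brain and 12.9 and 18.6 CPM in dura mater (log2 fold change 5.25, SE 2.96, edgeR adjusted p 0.627). Ltbp3, a further latent TGF-beta binding protein, was at 87.9 and 35.9 CPM against 76.3 and 176 CPM (log2 fold change 1.04, SE 0.90, edgeR adjusted p 0.932).

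Lox, the enzyme that crosslinks elastin and collagen, was at 31.3 and 0.376 CPM in brain and 78.9 and 24 CPM in dura mater (log2 fold change 1.70, SE 2.30, edgeR adjusted p 1). Efemp2, which encodes fibulin-4 and brings that enzyme to elastin, was at 0.206 and 74.3 CPM in brain and 46.7 and 16.7 CPM in dura mater. Like Fbln5 and Fbln2, both were well counted in only one of the brain libraries, with 5 counts of Lox in replicate 2 and 3 of Efemp2 in replicate 1. The sign of the log2 fold change of Efemp2 (−0.22, SE 2.41, edgeR adjusted p 1) turned in some settings, to 6.53 without brain replicate 2.

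Of the 13 other small leucine-rich proteoglycans, 3 were tested. Chad, which encodes chondroadherin of cartilage, was likewise not counted in brain and stood at 41.6 and 23.7 CPM in dura mater. Its dura mater mean was 151-fold above 3 counts per brain library (edgeR adjusted p 0.466, DESeq2 adjusted p 0.0041, range over the alternatives 0.0041 to 0.886). Ecm2, which shares leucine-rich repeats with decorin, was at 23.2 and 24.7 CPM in brain and 66.5 and 78.1 CPM in dura mater. Its replicates agreed and the groups did not overlap, but the fit gave an edgeR adjusted p of 0.907 (log2 fold change 1.6, SE 1.32).

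Of the 33 other matrix glycoproteins, 13 were tested and 10 had a log2 fold change above 0 (median 1.54). Mmrn2, an endothelial glycoprotein of the vessel wall, was at 335 and 558 CPM in brain and 1317 and 1356 CPM in dura mater (log2 fold change 1.59, SE 0.37, edgeR adjusted p 0.224, range over the alternatives 0.0029 to 0.672). Its relative Mmrn1, a platelet and endothelial protein, was not counted in brain and stood at 83.7 and 41.6 CPM in dura mater. The dura mater mean of Mmrn1 was 290-fold above 3 counts per brain library (edgeR adjusted p 0.291, DESeq2 adjusted p 2.31e-05, limma-voom adjusted p 0.084). Neither reached the threshold in the edgeR test, and both did in DESeq2. Tgfbi, a collagen-binding protein induced by TGF-beta, was at 0.480 and 0.978 CPM in brain and 83.5 and 42.4 CPM in dura mater (log2 fold change 6.19, SE 2.17, edgeR adjusted p 0.466).

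Fstl1, a secreted member of the SPARC family, was at 20.7 and 1.05 CPM in brain and 192 and 147 CPM in dura mater (log2 fold change 3.95, SE 1.46, edgeR adjusted p 0.466). Comp, a cartilage thrombospondin, was not counted in brain and stood at 14.1 and 4.40 CPM in dura mater. Its dura mater mean was 42.9-fold above 3 counts per brain library (edgeR adjusted p 0.466). Spock2, a proteoglycan of the same family as Sparcl1, was one of the 2 genes of the list that were lower at an unadjusted p under 0.05. Its level was 96.1 and 307 CPM in brain and 20.3 and 7.35 CPM in dura mater (log2 fold change −3.85, SE 1.02, edgeR adjusted p 0.286, DESeq2 adjusted p 0.00521). The other was Fn1, named here after its values were seen, which encodes fibronectin. Its level was 1117 and 1212 CPM in brain and 366 and 462 CPM in dura mater (log2 fold change −1.48, SE 0.33, edgeR adjusted p 0.194, DESeq2 adjusted p 0.00153). Spock2 and Fn1 were thus called lower in dura mater by DESeq2 and not by edgeR.

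**Figure D3:**
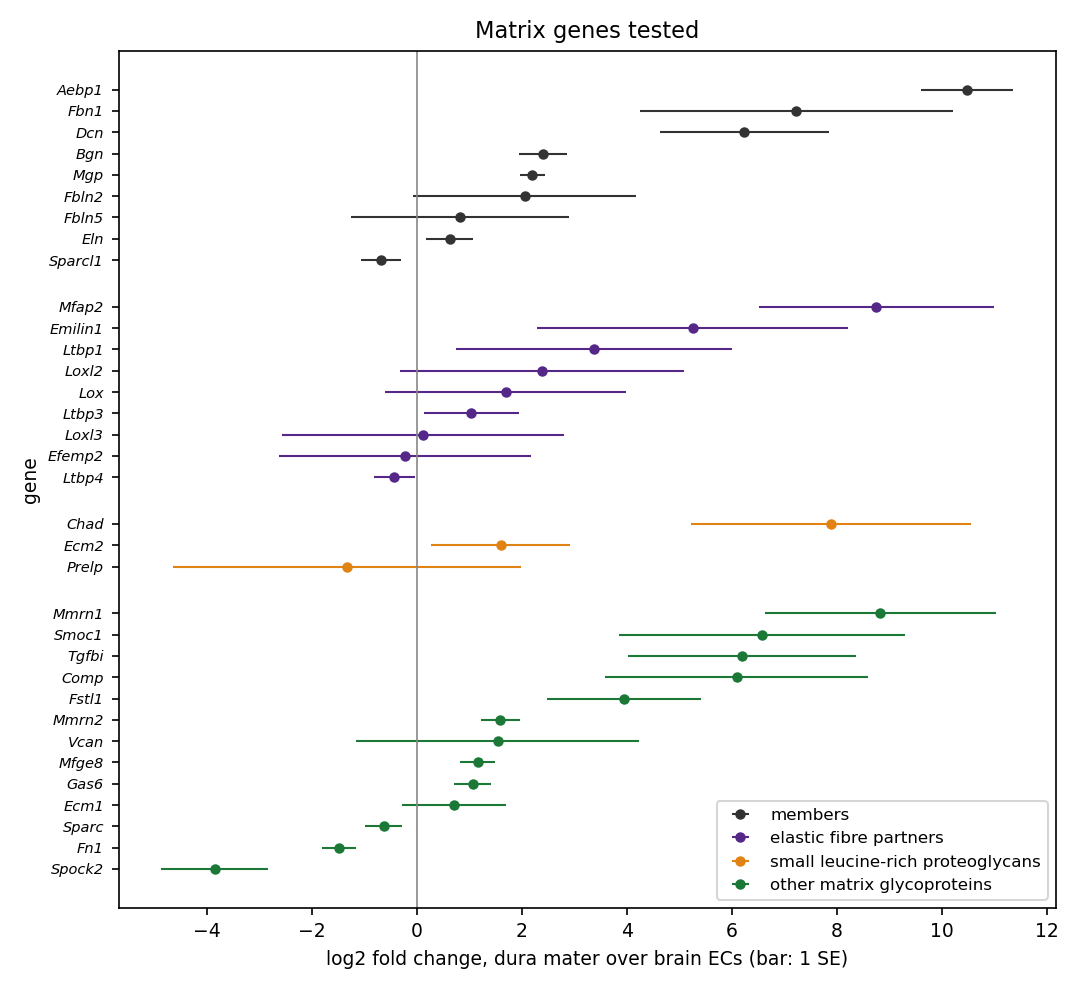
Log2 fold change, dura mater over brain ECs, with 1 standard error on each side, for the 9 tested genes of the 10 (in black, labelled members) and for the 25 tested genes of the 3 partner lists. Bars are short for Mgp, Bgn, Eln and Sparcl1, which were well counted in all 4 libraries, and long for genes with few counts in a library, such as Fbln5 (0.82, SE 2.08).

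Markers of other cell types were read beside the 10 genes. Fibroblast markers summed to 49.6 and 66.7 CPM in brain and 294 and 291 CPM in dura mater, with 7 and 9 of 11 counted in brain and 8 and 8 in dura mater. The ratio of the means was 5.03. Of the 6 fibroblast markers tested, 0 had an adjusted p under 0.05 in edgeR (1 at an unadjusted p under 0.05, 2 called by DESeq2). Col1a1, Col1a2 and Col3a1, the fibrillar collagens, held most of that sum in dura mater, at 56.1 and 74.5 CPM for Col1a1, 83.9 and 115 CPM for Col1a2, and 107 and 58.0 CPM for Col3a1. The receptor gene Pdgfra had 1 count or fewer in each library, Fap 0 and Clec3b 4 or fewer. Serpinf1 had 1 and 2 counts in brain and 199 and 184 in dura mater. Htra3 went the other way, with 269 and 220 counts in brain and 0 and 138 in dura mater. Well counted in some libraries only were Dpt (434 in dura mater replicate 1), Col6a3 (204 in dura mater replicate 2) and Pi16 (365 in brain replicate 1, 196 in dura mater replicate 2). All of these were named after their values were seen. The part of fibroblast RNA in the levels of the 10 genes was not tested.

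Smooth muscle markers were present in all 4 libraries, and their sum overlapped between the tissues while single markers differed in either direction. They summed to 665 and 1078 CPM in brain and 1063 and 425 CPM in dura mater, led by Acta2 (342 and 801 against 560 and 221 CPM) and Myh11 (198 and 171 against 294 and 116 CPM). Tagln was at 53.0 and 4.29 CPM in brain and 179 and 70.5 CPM in dura mater, higher in both dura mater libraries. Des, named after its values were seen, was lower in both, at 72.5 and 102 CPM in brain and 30.5 and 17.1 CPM in dura mater. Of the 6 markers, 4 or 5 were counted in each library. In all, 4 were tested and 0 called by edgeR, with 0 at an unadjusted p under 0.05, 0 called by DESeq2 and 0 by limma-voom. The part of smooth muscle RNA in the levels of the 10 genes was not tested.

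Mural cell markers summed to 95.9 and 131 CPM in brain and 172 and 283 CPM in dura mater, led by Pdgfrb, Abcc9 and Higd1b. Of these 9 markers 5 were counted in each brain library and 9 in each dura mater library, and all were tested with 0 called by edgeR (1 at an unadjusted p under 0.05, 1 by DESeq2). In both cases that was Kcnj8, at 0 CPM in brain and 34.6 and 24.7 CPM in dura mater. It passed the filter on low counts through the dura mater libraries alone, so it could only be higher there. Kcnj8, Cspg4 and Notch3, named after their values were seen, were higher in both dura mater libraries, and the rest overlapped. Astrocyte markers summed to 52.0 and 79.3 CPM in brain and 415 and 176 CPM in dura mater. They were led by Gja1 (51.0 and 7.75 against 269 and 148 CPM), S100b (0.618 and 71.4 against 0 and 17.7 CPM) and Slc1a3 (0.0686 and 0.0752 against 67.6 and 4.46 CPM). Gja1 held most of the sum in each dura mater library, and S100b overlapped between the tissues with a lower mean in dura mater. Aqp4 had 0 counts in each library, and 4 or 5 of the 7 were counted in each. Of the 4 astrocyte markers tested 0 were called by edgeR (3 at an unadjusted p under 0.05, 2 by DESeq2). The 2 called by DESeq2 were Slc1a3 and Slc1a2, the latter named after its values were seen. Each had at most 1 count in either brain library and passed the filter through dura mater alone, so it could only be higher there. Osteoblast markers summed to 147 and 104 CPM in brain and 165 and 133 CPM in dura mater, nearly all of it Alpl in each brain library. Of these 8 markers between 1 and 3 were counted in each library. Sp7 and Bglap, which define osteoblasts, had 0 counts in each library, and Runx2 and Ibsp were above 64 counts in dura mater replicate 1 alone. Alpl, the only osteoblast marker tested, was not called by edgeR (unadjusted p 0.818), DESeq2 or limma-voom. Leukocyte markers summed to 1.24 and 49.8 CPM in brain and 50.1 and 28.0 CPM in dura mater. They were led by Cd68 (0.275 and 0.226 against 40.7 and 26.6 CPM), Csf1r (0.275 and 48.6 against 2.07 and 0.542 CPM) and Itgam. Between 5 and 7 of the 8 were counted in each library, and Ptprc, which defines them, was at 4 counts or fewer. Of the 2 tested, 0 were called by edgeR (0 at an unadjusted p under 0.05, 1 by DESeq2). The gene called by DESeq2 was Cd68, which was under the filter's limit in both brain libraries and so could only be higher in dura mater. The part of these cells in the levels of the 10 genes was not tested.

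**Figure D4:**
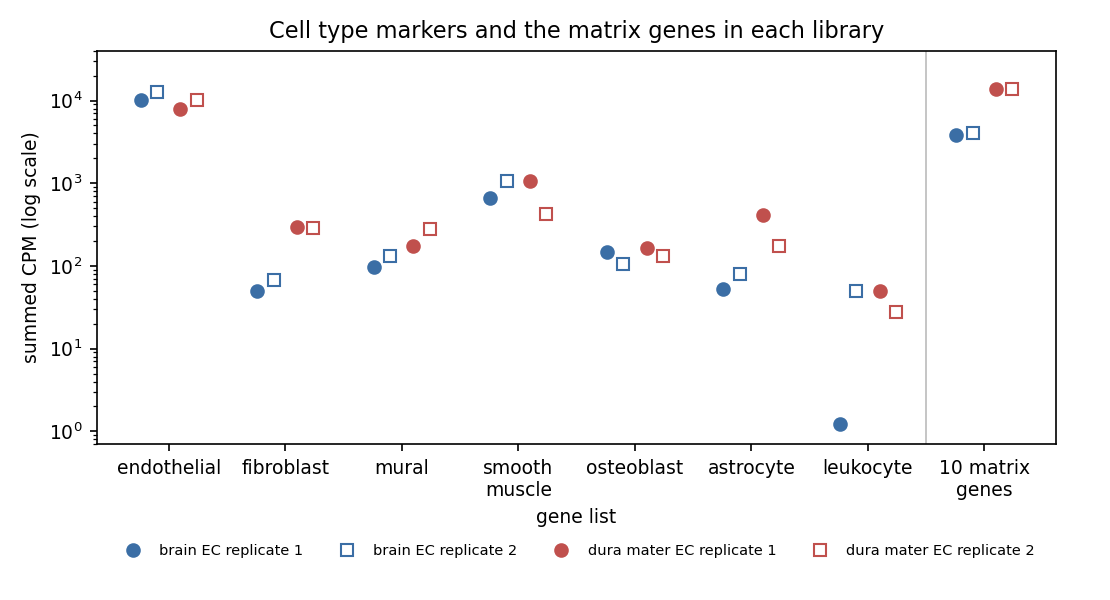
Summed CPM on a log scale of the markers of each cell type and of the 10 matrix genes in each library, with brain ECs in blue and dura mater ECs in red (filled circles for replicate 1, open squares for replicate 2). Fibroblast, mural and astrocyte markers and the 10 matrix genes stand higher in both dura mater libraries than in both brain libraries. Endothelial, smooth muscle, osteoblast and leukocyte markers overlap between the tissues.

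Over the 4 libraries, the genes whose log2 CPM profile lay nearest to those of Mgp, Sparcl1 and Eln were found among 7972 tested genes with a mean of at least 10 CPM. Likeness was the Euclidean distance between profiles centred on their own mean, with no test, since 4 libraries give many near profiles. Near to Mgp were Junb (distance 0.05 on the log2 scale), an immediate-early transcription factor, and Sos1 (0.18), a Ras exchange factor. Junb was at 1492 and 1253 CPM in brain and 6407 and 6219 CPM in dura mater. Nearest to Sparcl1 were Dirc2 (0.11), its own relative Sparc (0.13) and the endothelial gene Egfl7 (0.13). Sparc was at 2332 and 3713 CPM in brain and 1567 and 2310 CPM in dura mater, so that Sparc and Sparcl1 were both lower in both dura mater libraries than in both brain libraries. Nearest to Eln were Gigyf1 (0.10), Pdia6 (0.10) and Gm12992 (0.10).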

How the data were processed

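Per the labels, total RNA of sorted ECs was made into QuantSeq libraries. The authors deposited 1 table of raw whole-number counts per gene symbol for each library. The methods of the study name TopHat and cufflinks, and the submitters' processing notes name Bowtie2, edgeR and mm10. The counter, the annotation, the use of strand and any molecular identifiers are not given in the sources used here. Totals differed between libraries and no value had been scaled.

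Groups came from the sample titles. Counts were tested with edgeR 4.0.16 (R 4.3.3): TMM scaling, filterByExpr, a quasi-likelihood test of tissue with the older dispersion estimate and no covariate, with p-values adjusted by Benjamini-Hochberg over 9347 genes and a threshold of 0.05. It stands in for cufflinks, which needs alignments. Log2 fold changes use a prior count of 2, and the SE is the log2 fold change over the root of F. CPM uses total counts times the TMM factor. DESeq2 1.42.0 and limma-voom 3.58.1 were alternatives, with 363 adjusted p-values of DESeq2 left as NA. A ratio against brain libraries with 3 or fewer counts has an exact binomial interval for counting error. A fold against 0 counts sets the dura mater mean against 3 counts per brain library. The scripts were tested on simulated data. Where nothing says that libraries came from separate animals, p-values measure only the spread between these libraries. Replicates did not match within sampling noise (a chi-square over its degrees of freedom of 466 in brain and 257 in dura mater), so each was counted as its own sample.

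The genes, lists and tests were chosen with earlier results of these data known. Named were all 10 genes; of each partner list, genes with an adjusted p under 0.05 and the 6 with the largest change at 64 or more counts in both libraries of a tissue; of each marker list (endothelial, fibroblast, mural, smooth muscle, osteoblast, astrocyte, leukocyte), genes with an adjusted p under 0.05 and the 3 with the highest mean; the 3 nearest genes of Mgp, Sparcl1 and Eln, of which 1 is not reported here; markers at or near 0 were named after their values were seen. Positions are from GENCODE M21 (GRCm38, the build of mm10), matched on the symbol for 22197 of 23238 distinct symbols.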

Additional observations from a re-analysis of the deposited data

How the results depend on the processing

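With 2 libraries per tissue and replicates that often disagree on whether a gene is counted, the settings moved the counts of called genes widely. Under each of 17 alternatives the log2 fold changes of Mgp (2.05 to 2.33), Bgn (1.96 to 2.91), Dcn (6.11 to 6.37), Aebp1 (9.91 to 11.39), Fbn1 (6.69 to 9.40), Fbln2 (0.996 to 8.87), Eln (0.20 to 0.96) and Sparcl1 (−1.0 to −0.40) kept their sign wherever they could be fitted, and Fbln5 (−0.25 to 9.37) did not. Aebp1 and Fbn1 passed the filter through the dura mater libraries alone, so their sign is not read. For Mgp, Bgn, Dcn, Fbln2 and Sparcl1 the tissues did not overlap in these same libraries. Refits of those libraries could hardly turn their sign, so the kept sign adds no support for a direction. The median over all genes was itself 1.03 without brain replicate 1 and 0.95 without brain replicate 2. Beside these, Eln was at 0.25 and 0.96 and Fbln2 at 8.87 and 0.996. The kept sign of Eln, and of Fbln2 without brain replicate 2, thus did not place them clearly above that median. Of the 10 genes, DESeq2 called 5 and taking out the most counted genes, Mgp among them, left 1, beside 2 in edgeR, with a range of 2 to 6 as each library was left out. Their median ranged from 2.05 to 6.18 as each library was left out, and was 4.22 with the replicate block and 5.01 in limma-voom. Partner genes called numbered 8 in DESeq2, 1 in limma-voom, 4 with the newer edgeR dispersion estimate, 5 without a filter on low counts, 1 with at least 10 counts in every library and 2 with the replicate block, beside 0 in edgeR and from 0 to 6 as each library was left out. The log2 fold change of Efemp2 turned to 2.65 in limma-voom and 2.42 with the replicate block, and ranged from −1.28 to 6.53 as each library was left out. Over all genes the count of 57 (40 higher, 70.2%) became 810 in DESeq2 (76.5% higher), 306 with the newer dispersion estimate (59.2%), 326 without a filter (59.8%), 141 with at least 10 counts in every library (53.2%), 224 with the replicate block (59.4%) and 80 in limma-voom (50.0%), and 740, 701, 80 and 97 without brain replicates 1 and 2 and dura mater replicates 1 and 2. The cause was not tested. The median log2 fold change of all genes was −0.10 with RLE scaling, 0.13 with upper-quartile scaling, 0.28 in limma-voom and 0.25 with the replicate block. Where a library was left out, the lone library of that tissue is assumed to vary like the other tissue. The labels do not say that libraries of the same number are pairs, and their deviations had a correlation of −0.02 across genes. With the replicate block, 3 of the 10 genes were called (Aebp1, Mgp and Bgn).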
